A study of Mus musculus with 11 samples.

Results

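Acetylcholine signalling was examined in lateral habenula (LHb) tissue through 8 genes, taken as the rows of the count table named Chat, Slc18a3, Slc5a7, Ache, Chrm1, Chrm2, Chrm3 and Chrm4. They were 8 of the 54532 genes in the table, and 8 of 8 were among the 19619 genes with enough reads to be tested. The study asked how arthritis in mice affects a brain region linked to depression-like behaviour. Tissue came from BALB/c mice aged 3 months, in 3 libraries of CAIA females, 3 of CAIA males, 3 of Ctrl females and 2 of Ctrl males. CAIA mice, a model of collagen antibody-induced arthritis, received a mixture of 5 monoclonal antibody clones to type II collagen (50 mg/kg, intraperitoneal) and, 3 days later, lipopolysaccharide (LPS, 1 mg/kg). Ctrl mice received vehicle, so responses to LPS and to arthritis cannot be told apart. The labels do not say whether each library came from its own mouse; p-values therefore reflect how far these libraries differ from each other.

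Acetylcholine is made by choline acetyltransferase, loaded into vesicles by a vesicular transporter, and split after release by acetylcholinesterase, with the choline taken back up by a high-affinity transporter. Muscarinic receptors are G protein-coupled receptors for it: M1 and M3 act mainly through Gq and phospholipase C, while M2 and M4 act through Gi/o. In the habenula, cholinergic neurons lie in the medial nucleus, beside the lateral one, and project to the interpeduncular nucleus.

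Chat (ENSMUSG00000021919) and Slc18a3 (ENSMUSG00000100241), which encode the enzyme and the vesicular transporter, share a locus. In GENCODE M21 on GRCm38, Chat ran over chr14:32408203-32465989 and Slc18a3 over chr14:32462438-32464850, both on the minus strand. Slc18a3, a single exon, lay whole within a gap of 3764 bases between Chat exons, the gap nearest the 5′ end of Chat, and shared 0 exonic bases with it. Of the 8 Chat transcripts annotated, 4 began upstream of Slc18a3 and 4 downstream, so the locus holds start sites on both sides of the transporter gene. Slc5a7 (ENSMUSG00000023945), the high-affinity choline transporter gene, is elsewhere, at chr17:54273590-54299034 on the minus strand. The start regions of these 3 genes are shown because they are the genes that define a cholinergic neuron. Each covers 250 bases before and 50 after the RefSeq start on GRCm38.p6, read along the minus strand, at chr14:32465860-32466159 for Chat, chr14:32464801-32465100 for Slc18a3 and chr17:54298985-54299284 for Slc5a7. Capitals mark the searched motifs.
Chat: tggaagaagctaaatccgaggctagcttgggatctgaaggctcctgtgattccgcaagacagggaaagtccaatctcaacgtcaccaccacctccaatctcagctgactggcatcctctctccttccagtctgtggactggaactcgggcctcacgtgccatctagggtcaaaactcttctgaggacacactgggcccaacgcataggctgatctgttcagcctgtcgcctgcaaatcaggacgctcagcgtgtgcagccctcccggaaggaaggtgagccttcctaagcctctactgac
Slc18a3: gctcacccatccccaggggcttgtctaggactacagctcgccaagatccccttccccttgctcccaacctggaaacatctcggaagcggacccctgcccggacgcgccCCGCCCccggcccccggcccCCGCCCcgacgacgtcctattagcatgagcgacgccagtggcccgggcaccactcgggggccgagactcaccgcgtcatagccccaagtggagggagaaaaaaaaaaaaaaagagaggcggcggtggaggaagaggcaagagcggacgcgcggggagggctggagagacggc
Slc5a7: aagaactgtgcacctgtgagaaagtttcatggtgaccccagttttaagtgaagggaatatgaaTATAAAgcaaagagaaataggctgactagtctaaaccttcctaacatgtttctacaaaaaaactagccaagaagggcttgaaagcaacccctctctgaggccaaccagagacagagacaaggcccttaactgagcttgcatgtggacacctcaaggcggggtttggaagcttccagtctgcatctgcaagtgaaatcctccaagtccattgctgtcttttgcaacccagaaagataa

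The 3 windows differed in composition. The Slc18a3 window had 67.0% GC and 27 CpG dinucleotides, the Chat window 55.7% and 10, and the Slc5a7 window 44.7% and 1, beside medians of 52.7% and 7 over 32851 promoter windows of the same length. A set of 6 letter strings were searched on both strands, counting overlapping matches. GGGCGG, the core of an Sp1 site, was in the Slc18a3 window and in those of Ache, Chrm2 and Chrm4, and in 35.658% of all windows. TATAAA was in the Slc5a7 window and in 13.616% of all windows. GGACAG, part of the repressor element bound by REST, was in the Chrm2 and Chrm3 windows and in 22.179% of all windows. TGACGTCA, TAATTA and TTCAGCACC, present in 1.79%, 5.291% and 0.371% of windows, were in none of the 7 member windows searched. In the Chat window none of the 6 strings was found. A match is a description of letters and was not tested as a binding site.

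The libraries held 25317306 to 29565006 counted reads, of which the 8 genes took 0.04177% to 0.05061%. The tissue was labelled LHb, and lateral habenula markers such as Gap43, Htr2c and Gpr151 had a summed level of 1488 to 1866 CPM (counts scaled to a common library size, in the usual unit CPM). Medial habenula markers were also high, at 2413 to 3268 CPM summed over 12 genes, and thalamus markers reached 1447 to 2682 CPM over 10 genes, so the dissections held more than the lateral nucleus. The list of 6 basal forebrain cholinergic neuron markers summed to 142 to 150 CPM in CAIA females and 121 to 148 CPM in CAIA males, against 125 to 158 CPM in Ctrl females and 131 to 147 CPM in Ctrl males. Nearly all of it was Zic4, with 134 ± 10 CPM in CAIA and 131 ± 13 CPM in Ctrl libraries, while Lhx8 was at 0 in 6 of the 11 libraries and Gbx1 in 1. Choroid plexus markers moved with treatment, at 89.8 to 96.7 CPM in CAIA females and 126 to 1446 CPM in CAIA males, against 1811 to 3929 CPM in Ctrl females and 3080 to 3106 CPM in Ctrl males. Pineal markers were high in 2 libraries, at 34.1 CPM in CAIA female replicate 2 and 39.0 CPM in CAIA male replicate 3, and at 1.42 to 10.4 CPM in the other 9. These 2 were the CAIA libraries with least Chat, and the part of these markers in the values of the 8 genes was not tested. In such bulk tissue, fewer cells of a type and less RNA per cell cannot be told apart.

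In Ctrl libraries the esterase transcript stood far above the others and the receptors formed the low end. Levels are compared between genes in reads per kilobase of merged exons on the CPM scale (RPKM), as mean ± SD over 5 Ctrl libraries. Ache had 45.8 ± 4.0 RPKM, followed by Slc5a7 with 13.5 ± 3.4 RPKM, Slc18a3 with 13.1 ± 2.0 RPKM and Chat with 6.57 ± 1.68 RPKM. The receptors came next, with Chrm2 at 6.42 ± 1.46 RPKM, Chrm3 at 5.80 ± 0.84 RPKM, Chrm1 at 3.75 ± 3.12 RPKM and Chrm4 at 2.60 ± 1.21 RPKM. Ache was higher than 95.3% of tested genes on this scale, Slc5a7 than 80.2%, Chat than 64.6% and Chrm4 than 44.8%. Only 2 steps of this order separated neighbouring genes in all 5 Ctrl libraries without overlap of their ranges. These were Ache over Slc5a7, 3.39-fold between means, and Slc18a3 over Chat, 2.00-fold. On merged exon length, both held in 11 of 11 libraries. Slc5a7 and Slc18a3 differed by less than their spread, and so did the neighbours from Chat down to Chrm4. Chrm1 exceeded Chrm4 in 2 of 5 Ctrl libraries and in 8 of 11 libraries overall. With the longest coding transcript as the length, Chrm3 (8.36 RPKM) came before Chrm2 (6.84 RPKM). On that length Chat had 10.8 RPKM in Ctrl libraries and Slc18a3 13.1 RPKM. Their Ctrl ranges then overlapped, at 8.15 to 14.4 RPKM for Chat and 11.1 to 15.3 RPKM for Slc18a3. The annotation used here gives Chrm4 a single exon of 1440 bases, so its RPKM rests on a coding length.

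**Figure D1:**
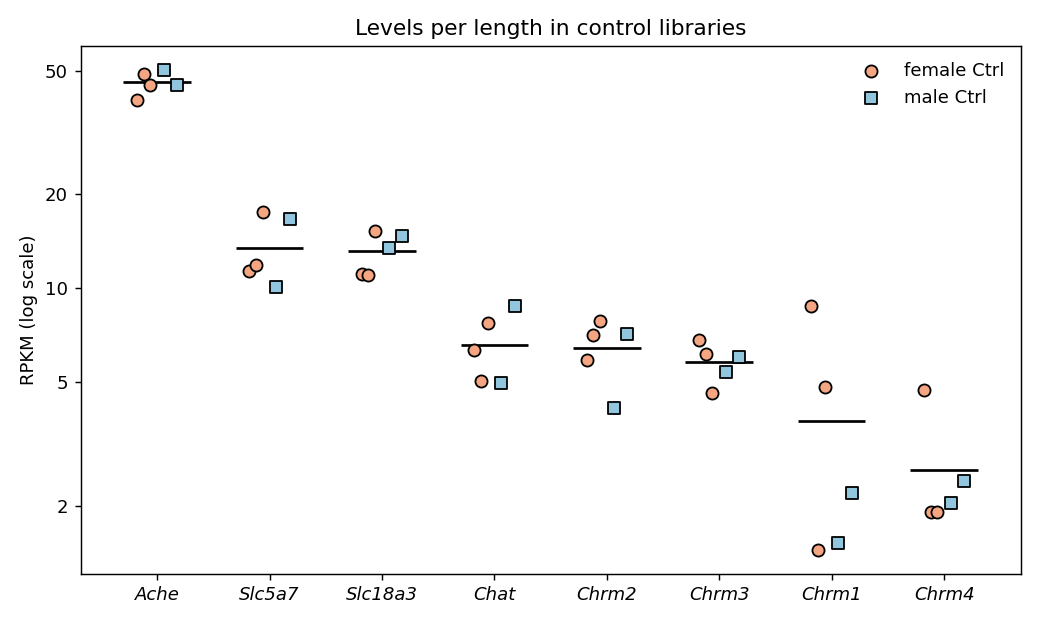
Level of each gene in the 5 Ctrl libraries in RPKM on a log axis, with circles for female Ctrl, squares for male Ctrl and a line at the mean. Ache lies above every other gene, at 40.2 to 50.2 RPKM, while the receptor ranges overlap, with Chrm1 spread over 1.45 to 8.76 RPKM.

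The genes of acetylcholine synthesis, storage and choline uptake did not pass the test between CAIA and Ctrl mice. Chat had 35.4, 27.7 and 35.7 CPM in CAIA females and 38.7, 40.1 and 24.6 CPM in CAIA males, against 29.7, 23.7 and 36.5 CPM in Ctrl females and 23.3 and 41.2 CPM in Ctrl males. The lowest and the highest library were both Ctrl males, so the CAIA range lay inside the Ctrl range. The fold change over both sexes was 0.11 ± 0.19 log2 (SE, 95% interval -0.31 to 0.54), with an adjusted p of 0.967 by edgeR's quasi-likelihood test with Benjamini-Hochberg adjustment over all tested genes. It moved most with the male Ctrl pair: without replicate 1 it was -0.07, and without replicate 3 it was 0.36. In females alone the Chat fold change was 0.13 ± 0.25 log2, and in males 0.09 ± 0.28 log2. The female value was -0.001 without Ctrl replicate 2.

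Slc18a3, the vesicular transporter gene nested in the Chat locus, had 26.5, 26.3 and 36.4 CPM in CAIA females and 30.3, 32.2 and 28.2 CPM in CAIA males, against 26.9, 26.7 and 36.9 CPM in Ctrl females and 32.4 and 35.5 CPM in Ctrl males. In females the values of both groups nearly coincided, while in males all 3 CAIA libraries lay below both Ctrl libraries. In males, 17.7% of all tested genes showed such a separation in one direction or the other. The fold change was -0.09 ± 0.11 log2 over both sexes (95% interval -0.33 to 0.14) and -0.17 ± 0.16 log2 in males (-0.51 to 0.18). Over both sexes it was -0.19 log2 without female CAIA replicate 3 and -0.013 log2 without female Ctrl replicate 3.

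Slc5a7, whose transporter limits the choline supply for synthesis, had 88.3, 76.0 and 94.5 CPM in CAIA females and 85.8, 88.6 and 75.2 CPM in CAIA males, against 64.2, 66.8 and 99.1 CPM in Ctrl females and 56.9 and 94.2 CPM in Ctrl males. The 6 CAIA libraries were close together, and the 5 Ctrl libraries were split into 3 lower and 2 higher ones, on either side of nearly all CAIA values. The fold change was 0.15 ± 0.15 log2 over both sexes (-0.18 to 0.49). As for Chat, of the libraries left out in turn the male Ctrl ones moved it most, at -0.013 without replicate 1 and 0.37 without replicate 3. With the choroid plexus marker level in the model it was 0.47 ± 0.39 log2. In females alone the Slc5a7 fold change was 0.17 ± 0.20 log2, and in males 0.14 ± 0.23 log2.

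Medial habenula markers are given beside these 3 genes, since the cholinergic neurons of the habenula lie there. In the 3 libraries with least Chat, CAIA male replicate 3, Ctrl male replicate 1 and Ctrl female replicate 2, their mean level was 6.90, 6.96 and 6.79 log2 CPM. It was 7.16 log2 CPM in Ctrl male replicate 3, where Chat was highest. The order did not match throughout: the highest marker level, 7.29 log2 CPM, was in CAIA female replicate 3 with 35.7 CPM of Chat, and Ctrl female replicate 1 had 6.83 log2 CPM with 29.7 CPM of Chat. Over the whole list of 12 markers, the mean log2 level was 6.98 to 7.29 in CAIA females and 6.90 to 7.09 in CAIA males, against 6.79 to 7.27 in Ctrl females and 6.96 to 7.16 in Ctrl males. With this level added to the model, the fold changes over both sexes were 0.07 ± 0.13 log2 for Chat, 0.13 ± 0.08 log2 for Slc5a7 and -0.14 ± 0.06 log2 for Slc18a3, with adjusted p of 0.976, 0.896 and 0.781 by the same edgeR test. In females alone they were -0.05 ± 0.18 log2 for Chat, 0.003 ± 0.11 log2 for Slc5a7 and -0.17 ± 0.09 log2 for Slc18a3. In males they were 0.20 ± 0.19, 0.25 ± 0.12 and -0.10 ± 0.10 log2 in the same order.

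**Figure D2:**
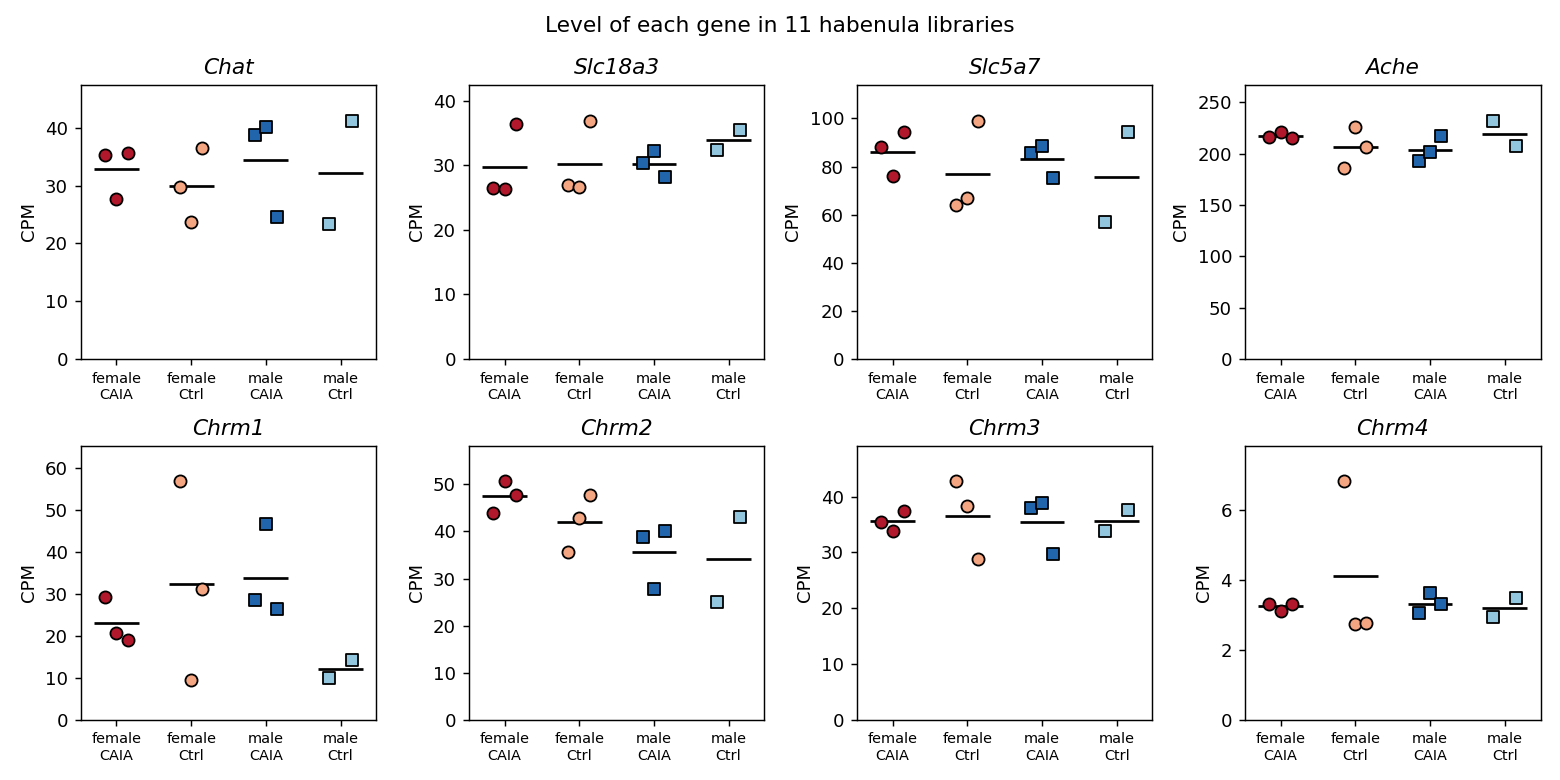
CPM of each gene in every library, by sex and treatment, with a line at the group mean and axes that start at 0. CAIA and Ctrl values overlap for all 8 genes when sexes are pooled; Chrm1 shows the widest spread, with 9.39 to 56.8 CPM in Ctrl females.

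Ache, the esterase gene, was the steadiest of the 8. It had 216, 221 and 215 CPM in CAIA females and 193, 202 and 217 CPM in CAIA males, against 186, 226 and 207 CPM in Ctrl females and 232 and 207 CPM in Ctrl males. All libraries lay within 1.25-fold of each other, and the groups overlapped. The fold change of -0.01 ± 0.07 log2 over both sexes had the narrowest interval of the 8, from -0.16 to 0.13. In females alone it was 0.08 ± 0.09 log2 and in males -0.11 ± 0.10 log2. Ache shares 98 exonic bases with Gm42456 on the opposite strand, and whether counting used strand is not given in the sources used here.

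Among the Gi/o-coupled receptors, Chrm2 and Chrm4 did not pass the test. Chrm2, the receptor that often serves as a presynaptic brake on release, had 44.0, 50.6 and 47.8 CPM in CAIA females and 38.8, 27.8 and 40.1 CPM in CAIA males, against 35.6, 42.9 and 47.6 CPM in Ctrl females and 25.0 and 43.1 CPM in Ctrl males. Female CAIA libraries were among the highest and male Ctrl replicate 1 was the lowest, but the treatment groups overlapped within each sex. The fold change was 0.12 ± 0.15 log2 over both sexes (-0.20 to 0.44), and it was -0.06 without male Ctrl replicate 1 and 0.35 without male Ctrl replicate 3. Chrm2 shares 142 exonic bases with 9330158H04Rik on the other strand.

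Chrm4 was the least abundant member, with 70 to 175 reads per library. It had 3.31, 3.10 and 3.30 CPM in CAIA females and 3.04, 3.61 and 3.31 CPM in CAIA males, against 6.81, 2.75 and 2.76 CPM in Ctrl females and 2.94 and 3.47 CPM in Ctrl males. Ctrl female replicate 1 alone stood above the rest, and the other 10 libraries lay between 2.75 and 3.61 CPM. The fold change over both sexes was -0.14 ± 0.22 log2 (-0.61 to 0.33), and without that library it was 0.14. Striatum markers, from a tissue rich in Chrm4, summed to 87.0 to 102 CPM in CAIA libraries, against 111 to 138 CPM in Ctrl libraries. Of these 6 genes, 5 had negative fold changes over both sexes. By edgeR's test 1 was called lower, against 0.596% of all tested genes called, and 2 had an unadjusted p under 0.05, against 6.36%. The part of these markers in the Chrm4 values was not tested. Counting error alone was 10.3% of the level at this depth, against 1.32% for Ache.

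Of the Gq-coupled receptors, Chrm3 varied less than most of the 8 genes and Chrm1 the most of all 8. Chrm3 had 35.5, 33.8 and 37.4 CPM in CAIA females and 38.0, 38.8 and 29.7 CPM in CAIA males, against 42.7, 38.3 and 28.7 CPM in Ctrl females and 33.8 and 37.7 CPM in Ctrl males. The CAIA values lay inside the Ctrl range with sexes pooled, and the fold change was -0.03 ± 0.10 log2 (-0.24 to 0.19).

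Chrm1, a receptor abundant in hippocampal and cortical pyramidal neurons, had 29.2, 20.8 and 19.0 CPM in CAIA females and 28.5, 46.8 and 26.3 CPM in CAIA males, against 56.8, 9.39 and 31.2 CPM in Ctrl females and 9.86 and 14.3 CPM in Ctrl males. Female Ctrl libraries ran from the lowest to the highest value of all 11, while in males all CAIA libraries lay above both Ctrl libraries. The fold change was 0.49 ± 0.44 log2 over both sexes (-0.54 to 1.53), -0.50 ± 0.58 log2 in females (-1.85 to 0.85) and 1.49 ± 0.69 log2 in males (-0.13 to 3.10). The male difference had an unadjusted p of 0.0658 and an adjusted p of 0.914 by edgeR's quasi-likelihood test with Benjamini-Hochberg adjustment, and unadjusted p of 0.0236 in DESeq2 and 0.0284 in limma-voom, neither of which passed after adjustment. Over both sexes the fold change was 0.83 log2 without female Ctrl replicate 1 and 0.28 log2 without female Ctrl replicate 2. The female fold change turned to 0.19 without Ctrl replicate 1 and was -0.93 without Ctrl replicate 2. Chrm1 shares 329 exonic bases with Gm22820 on the opposite strand.

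Hippocampus and cortex markers moved with Chrm1 across the libraries. Their mean level over 10 genes, Neurod6 and Tbr1 among them, was 3.54, 3.14 and 2.69 log2 CPM in CAIA females and 3.67, 3.77 and 3.38 log2 CPM in CAIA males, against 4.87, 2.69 and 3.55 log2 CPM in Ctrl females and 2.16 and 2.29 log2 CPM in Ctrl males. The library with most Chrm1, Ctrl female replicate 1, also had most of these markers, and both Ctrl males, low in Chrm1, had least. With the marker level in the model, the Chrm1 fold change was 0.19 ± 0.18 log2 over both sexes, 0.41 ± 0.24 log2 in females and -0.03 ± 0.34 log2 in males. In males the marker levels did not overlap between CAIA and Ctrl libraries, so this fit cannot tell treatment from marker level there. In females, 8 of the 10 marker fold changes were negative, and their median was -0.54 log2. By edgeR's test 0 of the 10 passed in females, against 0.26% of all tested genes, and 4 had an unadjusted p under 0.05, against 5.22%. In males, 9 of the 10 marker fold changes were positive, and their median was 1.28 log2. By edgeR's quasi-likelihood test 0 of the 10 passed in males, against 0% of all tested genes, and 4 had an unadjusted p under 0.05, against 5.63%. In males DESeq2 called 2 of the 10 and 71 of 19609 genes in all, and limma-voom called 0 of either.

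**Figure D3:**
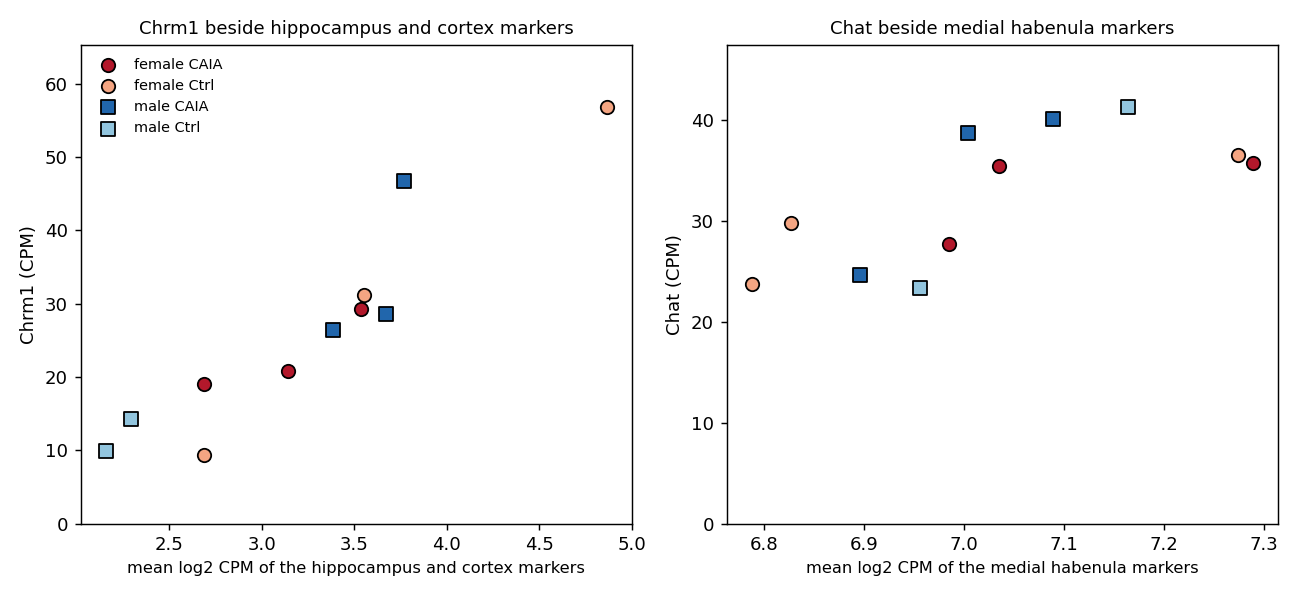
Left, Chrm1 in CPM against the mean log2 CPM of 10 hippocampus and cortex markers; right, Chat in CPM against that of 12 medial habenula markers, 1 point per library. Chrm1 spans 9.39 to 56.8 CPM along a marker range of 2.16 to 4.87 log2 CPM, and Ctrl female replicate 1 is at the top of both scales in the left panel.

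Counted together, the 8 genes gave no call between treatments. By edgeR's quasi-likelihood test with Benjamini-Hochberg adjustment at 0.05, 0 of 8 passed for CAIA against Ctrl over both sexes, where 0.596% of all tested genes passed. In females 0 of 8 passed, against 0.26% of all genes, and in males 0 of 8, against 0%. In edgeR the number of members with an unadjusted p under 0.05 was 0 in each of these 3 comparisons, where 6.36%, 5.22% and 5.63% of all genes had one. DESeq2 and limma-voom called 0 of 8 in each as well. Over all genes DESeq2 called 222, 171 and 71 of 19609, and limma-voom 137, 65 and 0 of 19619. Chrm1 in males was the 1 member with an unadjusted p under 0.05 in either tool. The share of all genes under that p is given here for edgeR alone, so this count has no background beside it. The median fold change of the 8 was 0.05 log2 over both sexes, with 4 positive and 4 negative, beside a median of 2e-04 over all tested genes. CAIA and Ctrl libraries were fully separated for 0 of 8 members over both sexes (1.18% of all genes) and for 0 of 8 in females (11.5%). In males they were separated for 2 of 8, Slc18a3 and Chrm1 (17.7%). The difference of the CAIA response between females and males was called for 0 of 8 members, and for 0% of all genes. Chrm1 had the largest such difference of the 8, -1.98 ± 0.90 log2 (unadjusted p = 0.0601, adjusted p = 0.978 by the same edgeR test), and it was 0.45 ± 0.47 log2 with the hippocampus and cortex marker level in the model. Male marker levels did not overlap between treatments, so that fit cannot tell treatment from marker level in males. In edgeR 0 of 8 members had an unadjusted p under 0.05 for the sex difference, as 4.11% of all genes did. DESeq2 and limma-voom made 0 calls among the 8, with unadjusted p of 0.0240 and 0.0483 for Chrm1. Over all genes they made 2 and 0 calls.

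With no filter on low counts, Chrm1 alone of the 8 passed in each of these 4 comparisons, for males with an adjusted p of 4.14e-22 by edgeR's quasi-likelihood test with Benjamini-Hochberg adjustment. Over both sexes, in females, in males and for the sex difference, 470, 452, 423 and 316 of all 35266 genes passed there. In that fit the prior degrees of freedom were infinite, which sets each gene's spread to the trend over all genes, whereas Chrm1 had 0.43 prior degrees of freedom in the filtered fit. With at least 5 reads over all libraries required, the male adjusted p was 0.970.

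**Figure D4:**
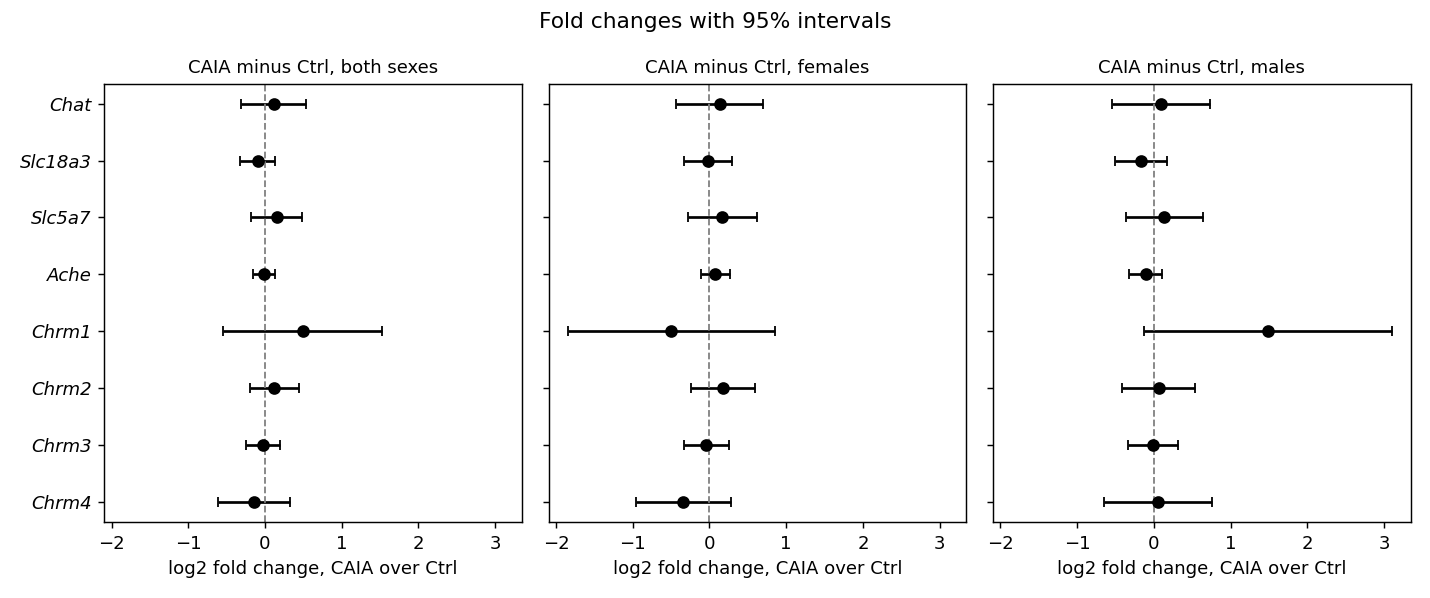
Fold change of CAIA over Ctrl in log2 units for each gene, over both sexes and in females and males, with bars for 95% intervals and a dashed line at 0. All 24 intervals include 0; those of Ache are the narrowest and those of Chrm1 the widest, reaching 3.10 in males.

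The intervals set what size of change these libraries leave room for. Over both sexes the bounds for Ache were -0.16 and 0.13 log2, for Chrm3 -0.24 and 0.19, and for Slc18a3 -0.33 and 0.14. Those of Chat, Slc5a7 and Chrm2 reached 0.54, 0.49 and 0.44 log2 upward. For Chrm1 a change of 1.53 log2 upward lay within the interval. Adding the choroid plexus marker level, which moved with treatment, widened the standard errors to 0.18 log2 for Ache and 1.09 log2 for Chrm1, and 0 of 8 members passed. In that fit 1 of all 19619 tested genes passed over both sexes.

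The muscarinic receptors made up a mix whose shares overlapped between treatments. Summed over the 4 genes, they had 19.2 ± 0.9 RPKM in CAIA libraries (n = 6) and 18.6 ± 4.8 RPKM in Ctrl libraries (n = 5). Chrm2 made up 35.9 ± 7.5% of this sum in CAIA and 35.6 ± 8.5% in Ctrl libraries, and Chrm3 29.6 ± 2.0% and 32.4 ± 7.3%. Chrm4 had 11.9 ± 0.7% in CAIA and 13.7 ± 3.2% in Ctrl libraries. Chrm1 had 22.7 ± 7.0% in CAIA and 18.2 ± 10.6% in Ctrl libraries, so Chrm2 varied about as widely as Chrm1 within CAIA libraries. The Gq-coupled pair together held 52.2 ± 7.4% in CAIA and 50.7 ± 5.7% in Ctrl libraries, so the groups overlapped in each share.

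**Figure D5:**
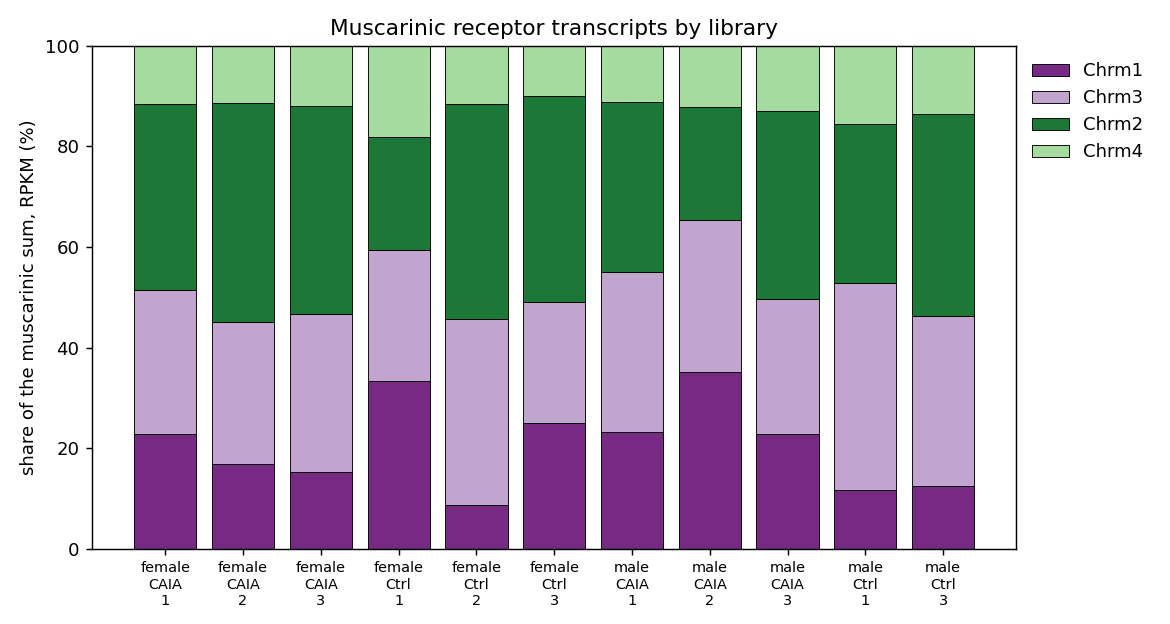
Share of each muscarinic receptor in the summed RPKM of the 4 genes, in percent, for every library, with the Gq-coupled pair below the Gi/o-coupled pair. The Chrm1 share is lowest in female Ctrl replicate 2 (8.73%) and highest in male CAIA replicate 2 (35.1%).

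Ratios between members of the same pathway also overlapped. Slc18a3 per Chat, on the RPKM scale, was 1.77 ± 0.31 in CAIA libraries and 2.06 ± 0.41 in Ctrl libraries. Slc5a7 per Chat was 2.13 ± 0.27 in CAIA and 2.07 ± 0.23 in Ctrl libraries. Ache per Chat was 6.61 ± 1.60 in CAIA and 7.41 ± 2.33 in Ctrl libraries, and it reached 10.1 in male Ctrl replicate 1, the library with least Chat. On merged exon length, Slc18a3 exceeded Chat in 11 of 11 libraries, from 1.46-fold to 2.71-fold. With the longest coding transcript as length, Chat exceeded Slc18a3 in CAIA female replicate 1 and CAIA male replicates 1 and 2. Slc18a3 stayed higher in the other libraries, so its excess over Chat depended on the length used.

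Between the sexes, Chrm2 had the smallest p of the 8. It averaged 47.5 ± 3.3 CPM in CAIA females and 42.0 ± 6.1 CPM in Ctrl females, against 35.6 ± 6.8 CPM in CAIA males and 34.0 ± 12.7 CPM in Ctrl males (SD, n = 3, 3, 3 and 2). The female to male difference was 0.36 ± 0.15 log2 (0.04 to 0.68), with an unadjusted p of 0.0305 and an adjusted p of 0.731 by edgeR's quasi-likelihood test with Benjamini-Hochberg adjustment. It was 0.18 without male Ctrl replicate 1 and 0.58 without male Ctrl replicate 3. After adjustment 0 of 8 members passed between the sexes, against 0.0459% of all genes. At an unadjusted p under 0.05 it was 1 of 8, against 6.76%, and DESeq2 and limma-voom called 0 of 8. Over all genes these 2 tools called 23 and 10.

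The members differed widely in their spread between libraries. They are described by the biological coefficient of variation (CV), an estimate of the spread beyond counting error within groups. In edgeR it is estimated per gene and drawn toward the trend over all genes. It was 48% for Chrm1, higher than in 97.2% of tested genes. It was 24.5% for Chrm4, 21.6% for Chat, 17.3% for Slc5a7, 16.7% for Chrm2, 13% for Slc18a3, 12.3% for Chrm3 and 8.51% for Ache, beside a median gene at 13%. Among tested genes of like level, the spread was higher than in 99.7% for Chrm1, 97.8% for Slc5a7, 97.5% for Chat, 95.7% for Chrm2 and 90.3% for Chrm4. It was higher than in 87.1% for Slc18a3, 86% for Chrm3 and 35.9% for Ache. After removal of the group means, Chat and Slc5a7 correlated with r = 0.86 over the 11 libraries, Slc5a7 and Slc18a3 with r = 0.745, and Chat and Slc18a3, from the shared locus, with r = 0.607. Ache ran the other way, with r = -0.704 to Chat and r = -0.792 to Chrm1, and Chrm1 and Chrm4 had r = 0.742. The points share libraries, depth scaling and tissue composition, and these values are descriptions.

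By the same measure, the genes most like Chat among 15555 compared were Styk1, Sphkap, Gm4924, Lima1 and Grip1, with r of 0.961 to 0.964. Slc5a7 ranked 99 in that order and Slc18a3 1590. For Chrm2, the receptor with most transcript per merged exon length in Ctrl libraries, though below Chrm3 with the longest coding transcript as length or in male Ctrl libraries alone, they were Usp37, Zfp563, Epm2aip1, Fbxo28 and Ythdc1, with r of 0.943 to 0.961.

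In 4 lists for the rest of the pathway, edgeR's quasi-likelihood test, DESeq2 and limma-voom each called 0 genes over both sexes. Of 6 genes for other esterases, esterase anchors and proteins that modulate or help assemble cholinergic receptors, 5 were tested, 2 with positive and 3 with negative fold changes. Bche, butyrylcholinesterase, had 4.86 ± 0.49 CPM in CAIA and 4.84 ± 0.86 CPM in Ctrl libraries, and a fold change of 0.04 ± 0.12 log2. Lynx1 and Ly6h, prototoxins that bind nicotinic receptors, had fold changes of -0.09 ± 0.12 and -0.06 ± 0.08 log2, and the chaperone gene Ric3 0.05 ± 0.06 log2. By each of the 3 tools, 0 of the 5 had an unadjusted p under 0.05, against 6.36% of all tested genes in edgeR.

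Of the choline supply genes, 0 passed, with fold changes from -0.63 to 1.88 log2 over both sexes. Of 9 tested, 8 were above 0 and the median was 0.11 log2. In edgeR 1 had an unadjusted p under 0.05, against 6.36% of all tested genes. DESeq2 had 2 and limma-voom 1, and their shares over all genes are not given here. In females 6 of 9 were above 0, with a median of 0.05 log2, and in males 7 of 9, with a median of 0.06 log2. The gene at an unadjusted p under 0.05 in edgeR was Slc44a5, of the choline transporter-like family, with 13.8 ± 2.2 CPM in CAIA and 9.89 ± 3.58 CPM in Ctrl libraries and a fold change of 0.54 ± 0.18 log2 (adjusted p = 0.519 by edgeR with Benjamini-Hochberg adjustment). Slc44a4 was near the detection limit, with 0.396 ± 0.419 CPM in CAIA and 0.181 ± 0.192 CPM in Ctrl libraries and a fold change of 1.88 ± 0.87 log2 over both sexes and 3.52 ± 1.44 log2 in males. The 1 negative value was that of Slc44a3, named after its value was seen, with 0.326 ± 0.226 CPM in CAIA and 0.485 ± 0.282 CPM in Ctrl libraries and a fold change of -0.63 ± 0.49 log2. Acly, which makes the acetyl-CoA of the cytosol, had 338 ± 16 CPM in CAIA and 312 ± 14 CPM in Ctrl libraries and a fold change of 0.12 ± 0.06 log2, and Slc44a1 had 0.11 ± 0.07 log2.

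Of 20 muscarinic signalling genes tested, 12 had positive and 8 negative fold changes, with a median of 0.02 log2, and 1 had an unadjusted p under 0.05 in edgeR, near the 6.36% of all genes, and 0 in DESeq2 and limma-voom. It was Chrm5, the remaining muscarinic receptor gene, with 2.15 ± 0.35 CPM in CAIA and 1.65 ± 0.31 CPM in Ctrl libraries and a fold change of 0.40 ± 0.19 log2 (unadjusted p = 0.0495, adjusted p = 0.781 by the edgeR test). Chrm5 rested on few reads, 33 to 70 per library. Kcnj3, a subunit of the GIRK channels that Gi/o-coupled receptors open, had 0.13 ± 0.07 log2, Gnaq, the Gq alpha subunit, 0.12 ± 0.07 log2, and Plcb3, a phospholipase C that Gq activates, -0.09 ± 0.07 log2. Of 7 transcription factors tied to cholinergic identity or to its repression, 6 were tested, 2 with positive and 4 with negative fold changes. In edgeR 0 of these 6 had an unadjusted p under 0.05, against 6.36% of all tested genes. Etv1 had 0.07 ± 0.11 log2 and Rest -0.03 ± 0.11 log2, while Isl1 and Gbx1 were scarce. Isl1 averaged 0.314 CPM in CAIA and 0.308 CPM in Ctrl libraries, with a fold change of 0.15 ± 0.52 log2, and Gbx1 averaged 0.203 CPM in CAIA and 0.259 CPM in Ctrl libraries, with -0.37 ± 0.69 log2.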

How the data were processed

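RNA from dissected habenula tissue was sequenced in 11 libraries, grouped by the sex and treatment in the labels. The deposited table holds whole-number read counts per gene, made by the authors. Per the submitters' processing notes, the build was GRCm38 and the tools were featureCounts 1.5.0-p3, HISAT2 2.0.5 and cutadapt 1.9.1. Which annotation release and strand setting were used is not given in the sources, and reads of genes that overlap on opposite strands therefore cannot be told apart.

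Counts were used as deposited. filterByExpr by group left 19619 of 54532 genes. TMM-scaled counts were fitted with 4 group means by robust glmQLFit and glmQLFTest of edgeR 4.0.16 in R 4.3.3, leaving 7 residual degrees of freedom. Benjamini-Hochberg adjustment ran over all tested genes, at 0.05. Each standard error is the fold change over the square root of F. Values after ± are standard errors for fold changes and SDs for levels, shares and ratios. CPM used TMM-scaled library sizes, and marker levels used log2 CPM with a prior count of 2. RPKM divided CPM by merged exon length in GENCODE M21, which matched 54495 identifiers.

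Replicate libraries differed by more than sampling noise (chi-square per degree of freedom 6.59 to 27.67), so each counted once. Totals of 25317306 to 29565006 counts give counting errors for reads, which are not independent molecules. Promoter windows came from RefSeq on GRCm38.p6 and matched 7 of 8 members; Chrm1 had no entry. Named pathway genes were up to 4 per list with the lowest p over both sexes, plus Chrm5 and Bche. Members, lists and tests were chosen with earlier results of these data known.

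As alternatives, the results were recomputed with DESeq2 1.42.0, limma-voom (limma 3.58.1), other size factors, other filters, a threshold of 0.1, replicate blocks, marker levels as covariates, another gene length, and each library left out in turn. Figures were drawn with matplotlib 3.10.9.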

Additional observations from a re-analysis of the deposited data

Results flagged for a closer look

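A library far from the rest of its treatment group was looked for in each of the 8 genes, in the 6 CAIA and in the 5 Ctrl libraries, with sexes pooled. A library was marked where its gap to the nearest other, over the whole range, passed Dixon's 95% critical value, which marks about 1 in 20 groups of independent normal values by chance. Of the 16 groups examined, 2 held one. Sexes were pooled and genes share libraries, so the 16 groups are not independent. Chrm1 in male CAIA replicate 2 was 46.8 CPM, and the nearest of the other CAIA libraries had 29.2 CPM, a gap of 0.632 of the whole range. The hippocampus and cortex markers in that library had a mean of 3.77 log2 CPM, the highest of the 6 CAIA libraries; their part in the Chrm1 value was not tested for a single library.

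Chrm4 in female Ctrl replicate 1 was 6.81 CPM, and the nearest other Ctrl library had 3.47 CPM, a gap of 0.822 of the range. The same library had the highest Chrm1 value (56.8 CPM) and the highest hippocampus and cortex marker level (4.87 log2 CPM) of all 11 libraries. Without it, the Chrm4 fold change over both sexes was 0.14 log2, against -0.14 log2 with it.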

How the results depend on the processing

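No member passed the 0.05 threshold in any of the 5 comparisons under the alternatives run, except with no filter on low counts, where 1, 1, 1 and 1 passed in the CAIA comparisons and their sex difference (Chrm1 each time) and 2 between the sexes (Chrm1 and Chrm2). In that fit the prior degrees of freedom were infinite, against a median of 7.49 after filtering. A filter of at least 5 reads over all libraries, chosen after seeing the data, gave a median of 17.89 and 0 members. Outside the unfiltered fit, the lowest adjusted p of a member, over edgeR, DESeq2 and limma-voom, was 0.214, 0.62, 0.224, 0.272 and 0.115 in the 5 comparisons. Calls over all genes ran from 1 to 470 over both sexes, 0 to 452 in females, 0 to 423 in males, 0 to 316 for the sex difference and 2 to 278 between the sexes. The highest count each time came from the unfiltered fit of 35266 genes. The block used the replicate numbers, and same-numbered libraries had correlations of -0.206 to 0.032 in their deviations from group means. Deviations within such small groups depend on each other, so this check cannot tell whether the numbers pair libraries. The block gave 126 calls over both sexes against 117 without it, 82 against 51 in females and 31 against 0 in males. For the sex difference the calls were 0 with and without the block, and no block could be had between the sexes.

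Several member fold changes took the other sign without passing the threshold, and the cause was not tested; values are log2 fold changes. With the hippocampus and cortex marker level in the model, over both sexes it was 0.037 for Ache. In females it was 0.41 for Chrm1, 0.023 for Chrm3 and 0.11 for Chrm4. In males, where marker levels did not overlap between treatments, it was -0.13 for Chat, 0.060 for Ache, -0.033 for Chrm1 and -0.72 for Chrm4. For the sex difference it was -0.027 for Slc18a3, -0.048 for Slc5a7, -0.047 for Ache, 0.45 for Chrm1, -0.17 for Chrm2, 0.18 for Chrm3 and 0.82 for Chrm4. Between the sexes it was -0.25 for Chrm1, -0.032 for Chrm3 and -0.17 for Chrm4. With the medial habenula marker level, in females it was -0.051 for Chat and 0.010 for Chrm3. For the sex difference it was -0.25 for Chat, -0.073 for Slc18a3, -0.25 for Slc5a7 and 0.038 for Chrm3. With the choroid plexus marker level, over both sexes it was 0.14 for Slc18a3, 0.079 for Ache and -0.14 for Chrm2. In females it was 0.28 for Slc18a3 and -0.14 for Chrm2. In males it was 0.012 for Slc18a3, -0.14 for Chrm2 and -0.13 for Chrm4. For the sex difference it was -0.0027 for Chrm2. Between the sexes it was -0.0074 for Chrm3. With a replicate block, in males it was -0.0094 for Chat and -0.012 for Chrm4. For the sex difference it was -0.078 for Chrm2 and 0.063 for Chrm3. Between the sexes Ache, at 9e-04 log2, took small negative values of -0.0011 with DESeq2, -0.0011 with RLE factors, -0.0032 with at least 10 reads in every library, -0.0021 with at least 5 in all, -0.012 with total counts and -0.019 with upper-quartile factors. Chrm3 was -0.0022 with the last of these, and 0.0023 for the sex difference with limma-voom.

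Leaving out each library in turn moved the fold changes that changed sign as follows, in log2 units. Over both sexes the ranges were -0.070 to 0.36 for Chat, -0.013 to 0.37 for Slc5a7, -0.046 to 0.023 for Ache, -0.057 to 0.35 for Chrm2, -0.10 to 0.040 for Chrm3 and -0.26 to 0.14 for Chrm4. In females the ranges were -0.0010 to 0.30 for Chat, -0.20 to 0.15 for Slc18a3, -0.93 to 0.18 for Chrm1, -0.19 to 0.093 for Chrm3 and -0.57 to 0.24 for Chrm4. In males the ranges were -0.27 to 0.58 for Chat, -0.19 to 0.56 for Slc5a7, -0.28 to 0.52 for Chrm2, -0.093 to 0.10 for Chrm3 and -0.073 to 0.19 for Chrm4. For the sex difference the ranges were -0.43 to 0.39 for Chat, -0.029 to 0.32 for Slc18a3, -0.38 to 0.35 for Slc5a7, -0.34 to 0.45 for Chrm2, -0.18 to 0.11 for Chrm3 and -0.61 to 0.20 for Chrm4. Between the sexes the ranges were -0.27 to 0.15 for Chat, -0.13 to 0.24 for Slc5a7, -0.040 to 0.037 for Ache, -0.052 to 0.096 for Chrm3 and -0.14 to 0.27 for Chrm4. Of those that kept their sign over both sexes, Chrm1 ran from 0.275 to 0.833 and Slc18a3 from -0.186 to -0.013. Leaving out a male Ctrl library leaves a lone one, assumed to vary like the other groups. The order of Ctrl levels kept 6 of 8 ranks with the longest coding transcript as length, 6 in female Ctrl libraries, 2 in male Ctrl libraries, and 4 to 8 with a Ctrl library left out. Male differences rested on 2 Ctrl libraries, and Chrm4 on 70 to 175 reads per library.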
